A study of Mus musculus with 14 samples.

Results

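The 5 genes described here encode neurotrophins and their receptors: the ligands Bdnf (brain-derived neurotrophic factor) and Ntf3 (neurotrophin 3), and the receptors Ntrk2 (TrkB), Ntrk3 (TrkC) and Ngfr (p75). They were chosen by symbol as members of 1 signalling family and are 5 of the 20856 gene symbols used in the accumbens matrices and of the 32958 symbols in the table of sorted cells. All animals were male C57BL/6 mice, and they received morphine sulfate (morphine) or saline (mock) by intraperitoneal injection; the labels used here give no dose or time. Single cells of the nucleus accumbens, a ventral striatal part of the reward circuit, were captured by Drop-seq from 4 morphine and 4 mock pools of 2 mice each. In both groups the mice of replicate 1 were 42 to 45 days old, those of replicate 2 were 37 to 42 days, those of replicate 3 were 78 to 82 days and those of replicate 4 were 78 days. Oligodendrocytes, the myelinating cells of the brain, were purified by FACS from the entire brain at 70 days of age and sequenced in bulk as 3 morphine and 3 mock libraries, for which no pooling is stated.

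Neurotrophins are secreted growth factors that act on the survival, growth and synapses of neurons. BDNF binds TrkB and neurotrophin 3 binds mainly TrkC, both receptor tyrosine kinases, while p75 binds all mature neurotrophins and, with sortilin, their uncleaved precursors. Astrocytes are known to carry mainly a truncated TrkB that lacks the kinase domain, and the striatum is known to receive most of its BDNF protein from cortical afferents rather than to make it.

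Bdnf has several alternative first exons, each with its own promoter, and these differ in how they respond to neuronal activity. The RefSeq promoter starting at chr2:109692186-109692485 (GRCm38.p6, + strand) is shown because it is the only one of the 7 Bdnf starts in that table with both motifs of activity-regulated transcription that were matched, and the Ntrk2 promoter at chr13:58806319-58806618 (+ strand) is shown beside it because it held none of the 6 motifs searched. The capitals mark TGACG, the core of the cAMP response element (read here on the other strand, starting at base 216), and TCGTG, a motif of the activity-induced factor NPAS4 (starting at bases 163 and 239).
Bdnf: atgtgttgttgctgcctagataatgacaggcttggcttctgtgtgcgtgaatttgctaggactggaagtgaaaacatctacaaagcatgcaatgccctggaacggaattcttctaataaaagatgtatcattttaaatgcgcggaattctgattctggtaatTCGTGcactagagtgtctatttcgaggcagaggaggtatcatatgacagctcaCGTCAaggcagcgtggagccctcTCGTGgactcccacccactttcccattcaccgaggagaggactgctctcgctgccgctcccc
Ntrk2: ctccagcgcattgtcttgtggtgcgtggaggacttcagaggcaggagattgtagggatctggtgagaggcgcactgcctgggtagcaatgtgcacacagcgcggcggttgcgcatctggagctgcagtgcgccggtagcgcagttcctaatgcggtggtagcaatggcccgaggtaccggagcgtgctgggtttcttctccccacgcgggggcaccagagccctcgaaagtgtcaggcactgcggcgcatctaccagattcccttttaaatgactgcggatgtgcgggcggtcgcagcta
Over both strands of the 32851 promoters of 300 bases in the table, TGACG was in 20.8% and TCGTG in 16.04%, so neither is rare. The other motifs were TGACGTCA, in 1.79% of promoters and containing TGACG, the E-box CACGTG in 7.15%, the serum response element in 0.0639% and the glucocorticoid response element in 0.00913%. The motifs were chosen after expression values had been seen, and a match describes these letters only.

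The accumbens matrices held 33225 cells after filtering, with 6761888 to 24163551 UMIs per pool, where a UMI marks 1 captured transcript. Of these cells, 29129 (87.7%) fell into a class led by its marker genes, none of which is a gene described here, and 14 classes had enough cells in enough pools to be tested. D1 and D2 medium spiny neurons, the projection neurons of the accumbens, were the most numerous with 7189 and 5148 cells, and the class counted here as neuroblasts was led by Vip, Dlx6os1, Tac2 and Dcx, so it also holds interneuron genes. Pools shared at most 8 cell barcodes, and the median mitochondrial share per pool was 4.82 to 7.01% in morphine and 3.01 to 4.57% in mock pools. Reads assigned to genes in the sorted libraries numbered 14989118 to 23456702, and the summed level of 12 oligodendrocyte markers was 69438 to 70528 CPM (counts scaled to the total of the library, or of the class in a pool) in morphine and 65798 to 68982 CPM in mock libraries.

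Bdnf (chr2:109674700-109727007, + strand, GRCm38) was a transcript of excitatory neurons in these cells. Of its 3563 UMIs in the 8 pools, 2932 (82.3%) lay in the 1554 cells of the excitatory class, which is led by genes of cortical-type glutamatergic neurons such as Neurod6 and Slc17a7. This class made up 0.355 to 9.38% of the cells of a pool, and whether its cells came from within the accumbens was not tested. The Bdnf level in the class was 176, 133, 1235 and 283 CPM in morphine pools 1 to 4, against 259, 241, 132 and 213 CPM in mock pools 1 to 4. One morphine pool stood far above the other 7, and the remaining values of both groups overlapped. In that pool, morphine 3, the class had 10 cells with 37 Bdnf UMIs, and 34 of them (91.9%) came from 1 cell. The mean over all 8 pools was 334 ± 368 CPM (SD, n = 8).

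Every other class averaged at most 10.7 CPM of Bdnf. The next levels were 10.7 ± 10.9 CPM in neuroblasts, 9.86 ± 6.26 CPM in astrocytes and 7.21 ± 6.80 CPM in interneurons (SD, n = 8 each). Medium spiny neurons were low, at 2.73 ± 1.18 CPM in the D1 and 2.32 ± 1.68 CPM in the D2 class. Ependymal cells and newly formed oligodendrocytes had 0 UMIs, which allows up to 3.98 and 2.91 CPM. In oligodendrocytes the level was highest in morphine pool 4, at 9.68 CPM, and in mock pool 4, at 6.37 CPM, the pools with the largest shares of excitatory neurons (9.38 and 9.27% of cells). The part of free RNA in these low values was not tested.

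Bdnf was unevenly spread over the excitatory neurons themselves. Of these 1554 cells, 533 (34.3%) had at least 1 Bdnf UMI, against 0.703% of oligodendrocytes, whose median depth was 1891 UMIs per cell against 4788 in excitatory neurons. With every cell thinned to 1000 UMIs, and 62 and 438 shallower cells left out, the shares were 13.9% (95% exact binomial interval 12.2 to 15.7%) and 0.264% (0.121 to 0.501%). The 50 cells with most Bdnf held 48.3% of its UMIs in the class, 71 cells had 10 or more, and the highest cell had 92. Among interneurons, 63 of the 80 Bdnf UMIs lay in 22 cells whose leading markers were Sst, Npy and Nos1. Cells led by these markers were 767 of the 1427 interneurons and held 4541563 of the 8422773 UMIs of the class. Their Bdnf level ran from 0 to 33.2 CPM between pools. The 284 cells led by Pvalb, Pthlh and Kit had 0 Bdnf UMIs, which allows up to 1.51 CPM. Such intervals and limits cover counting error only, and these interneuron subsets were formed after the levels by class had been seen.

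Ntf3 (chr6:126101412-126166910, - strand) was rare, with 104 UMIs in all pools together. Its level was highest in mural cells, the smooth muscle cells and pericytes of vessel walls, with 26.2, 50.5, 54.8 and 0 CPM in morphine pools 1 to 4 and 14.2, 16.4, 10.4 and 45.3 CPM in mock pools 1 to 4. Mural cells had Ntf3 in 7 of 8 pools, and the groups overlapped. The 601 mural cells held 25 of the UMIs, neuroblasts 15 (4.07 CPM on average), excitatory neurons 29 (3.02 CPM) and interneurons 11 (1.43 CPM). In 7 classes no UMI was seen, and the limits that this allows ran from 0.321 CPM in oligodendrocytes to 3.98 CPM in ependymal cells.

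Within the mural class, all 25 Ntf3 UMIs, from 19 cells, lay in the 339 cells with more of the smooth muscle genes Acta2, Tagln and Myh11. This gave 43.6 CPM (95% Poisson interval 28.2 to 64.3), and the 254 cells with more of the pericyte genes Kcnj8, Abcc9, Vtn and Higd1b had 0 UMIs, which allows up to 10.5 CPM. Ntrk3, the receptor of neurotrophin 3, followed the same split with 23 UMIs (40.1 CPM, 25.4 to 60.1) in the smooth muscle cells and 1 UMI (3.51 CPM, 0.0888 to 19.5) in the pericytes. Ntrk2 did not, with 92.4 CPM (69.2 to 121) in the smooth muscle cells and 133 CPM (94.3 to 183) in the pericytes. In the smooth muscle cells Ntf3 was at 0 CPM in morphine pool 4, and Ntrk3 was at 0 CPM in morphine pool 1 and mock pool 4. The mural subsets, too, were formed after the levels by class had been seen, and the intervals cover counting error over all pools summed.

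**Figure D1:**
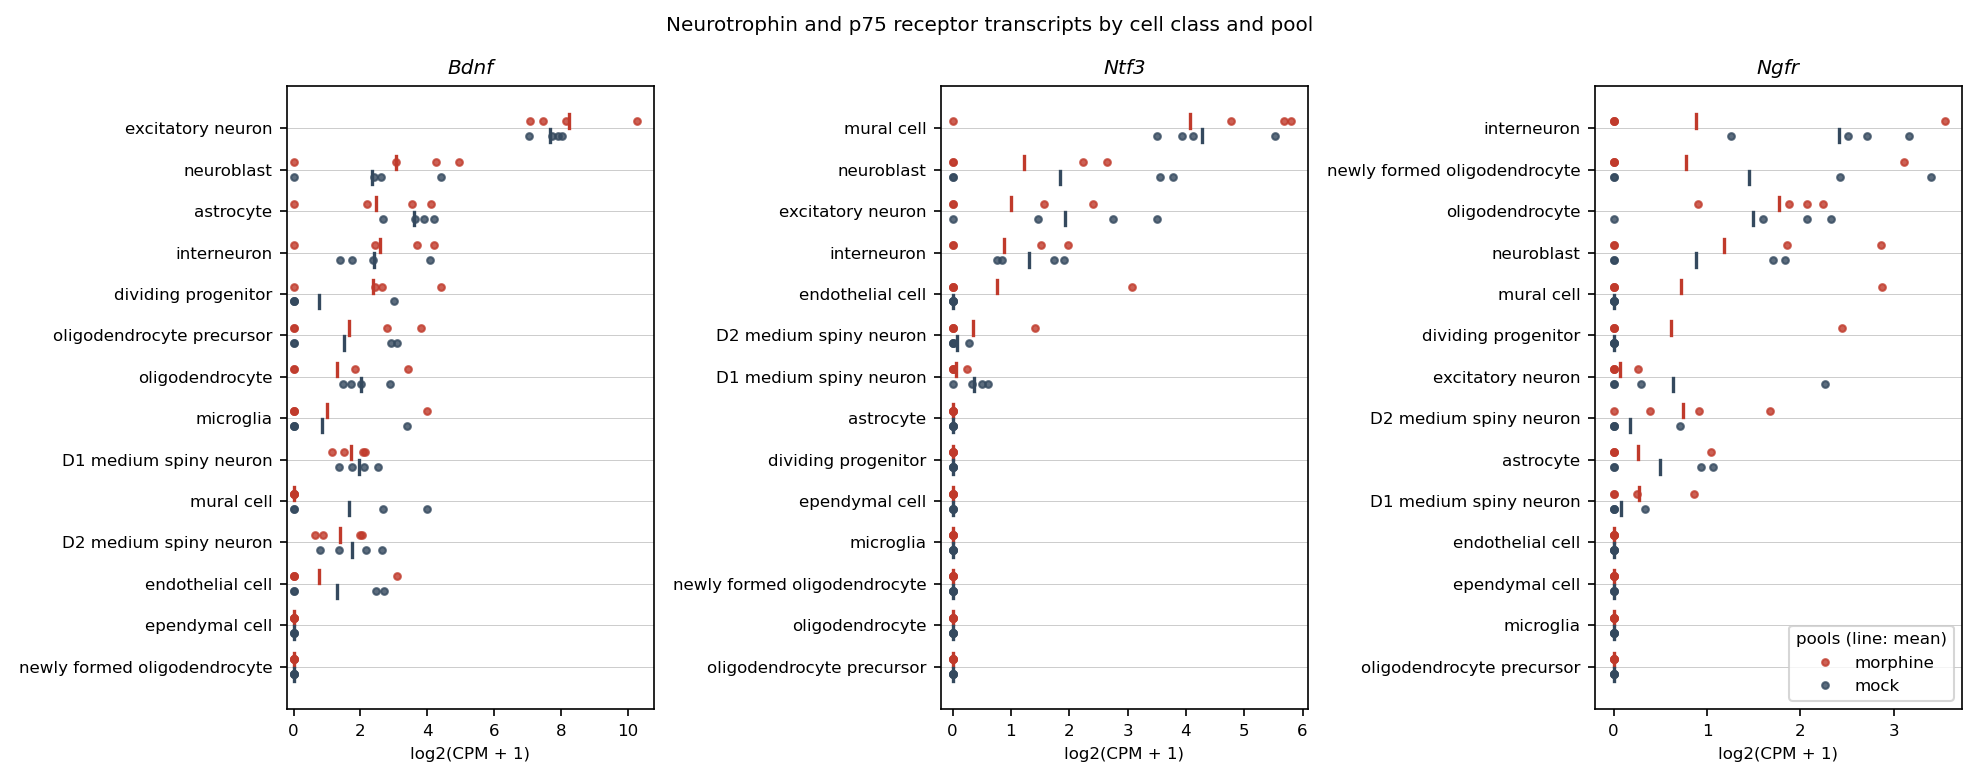
Level of Bdnf, Ntf3 and Ngfr, as log2(CPM + 1), in each of 14 cell classes (rows, by mean level), with 1 point per pool and a line at the mean of the 4 morphine pools (upper) and of the mock pools (lower). Bdnf stands out in excitatory neurons and Ntf3 in mural cells, while most Ngfr points lie at 0.

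Ntrk2 (chr13:58806569-59133970, + strand) was found in every class and was highest in astrocytes. Astrocytes had 1049, 1244, 1179 and 1265 CPM in morphine pools 1 to 4, against 1195, 1156, 1206 and 1222 CPM in mock pools 1 to 4. The pools of both groups lay within the same range, and the mean over the 8 pools was 1189 ± 66.8 CPM (SD, n = 8). Ependymal cells, the ciliated lining of the ventricles, followed with 885 ± 91.8 CPM (SD, n = 7).

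The neuronal classes and the oligodendrocyte precursors formed a middle range of Ntrk2. Interneurons averaged 474 ± 74.2 CPM, excitatory neurons 454 ± 97.0, oligodendrocyte precursors 371 ± 50.9, D1 neurons 351 ± 49.0, D2 neurons 341 ± 31.2 and neuroblasts 327 ± 69.0 CPM (SD, n = 8 each). Neighbours in this stretch did not differ beyond the spread of their differences between pools. The lower levels were 158 CPM in dividing progenitors, 118 in mural cells, 117 in newly formed oligodendrocytes, 90.0 in microglia, 77.6 in oligodendrocytes and 53.4 in endothelial cells. As for Bdnf, the part of free RNA in these lower levels was not tested. With cells thinned to 1000 UMIs, 65.3% of astrocytes had an Ntrk2 UMI (63.4 to 67.1%), against 6.31% of oligodendrocytes (5.52 to 7.18%) and 5.81% of endothelial cells (4.39 to 7.51%). Before thinning these shares were 75.8, 13.8 and 8.74%. The counts are per gene, so the full-length and the truncated TrkB transcripts were not separated.

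Ntrk3 (chr7:78175959-78738012, - strand) followed another order, with oligodendrocyte precursors and medium spiny neurons highest. Oligodendrocyte precursors had 39.9, 74.3, 91.0 and 64.9 CPM in morphine pools 1 to 4 and 50.1, 78.9, 78.3 and 71.8 CPM in mock pools 1 to 4. D1 neurons had 76.2, 68.1, 70.9 and 55.2 CPM in morphine pools and 67.7, 70.2, 68.6 and 62.9 CPM in mock pools. The precursors varied more between pools than the D1 neurons, and the groups overlapped in both classes.

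Mean Ntrk3 was 68.6 ± 16.6 CPM in the precursors, 67.5 ± 6.20 CPM in D1 neurons and 55.9 ± 9.31 CPM in D2 neurons (SD, n = 8 each). Excitatory neurons, interneurons and neuroblasts averaged 45.4, 41.1 and 36.8 CPM. Mural cells averaged 25.0 CPM and astrocytes 17.2 CPM. Along the oligodendrocyte lineage the mean was 68.6 CPM in precursors, 13.8 ± 12.5 CPM in newly formed oligodendrocytes and 3.66 ± 1.71 CPM in oligodendrocytes (SD, n = 8 each). In all 8 pools the precursors lay above the oligodendrocytes.

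**Figure D2:**
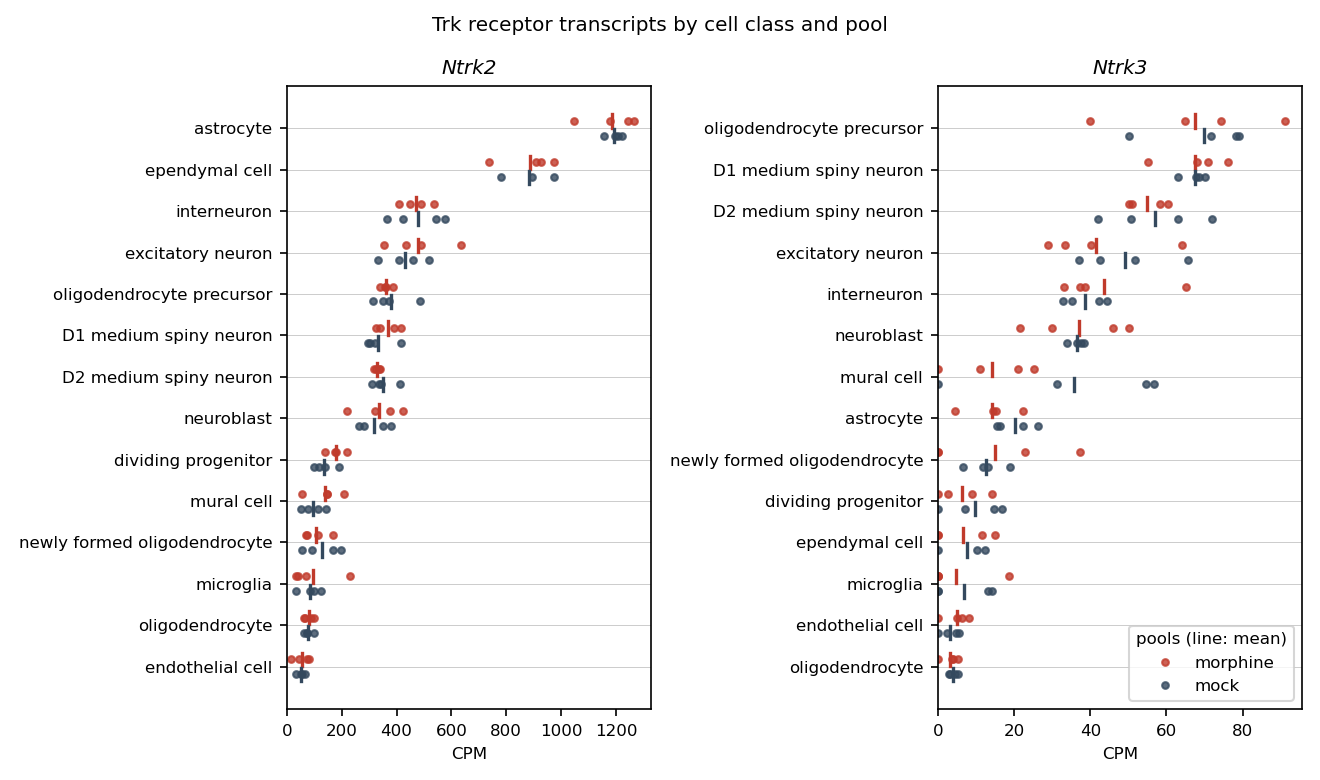
Level of the Trk receptor transcripts Ntrk2 and Ntrk3 in CPM in each of 14 cell classes (rows, by mean level), with 1 point per pool and a line at the mean of the morphine pools (upper) and of the mock pools (lower). Ntrk2 is highest in astrocytes, at 1049 to 1265 CPM, and Ntrk3 in oligodendrocyte precursors and D1 neurons.

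Ngfr (chr11:95568818-95587735, - strand) had 112 UMIs in all pools together. Interneurons held 41, oligodendrocytes 26, D2 neurons 10, and endothelial cells, ependymal cells, microglia and oligodendrocyte precursors 0. In oligodendrocytes the level was 2.68, 3.195, 0.877 and 3.72 CPM in morphine pools 1 to 4 and 0, 4.00, 2.03 and 3.18 CPM in mock pools 1 to 4. In interneurons it was 0, 10.7, 0 and 0 CPM in morphine pools and 4.71, 5.55, 7.97 and 1.39 CPM in mock pools. Ngfr was thus seen in oligodendrocytes of 7 of 8 pools, at 1 to 7 UMIs in each, and in interneurons of 5. The groups overlapped in both classes, and the part of free RNA in these low values was not tested.

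Most of the interneuron signal came from few cells. Of the 41 Ngfr UMIs, 33 lay in the 86 cells with at least 2 UMIs of the cholinergic genes Chat and Slc5a7. Only 6 cells held all 33 (41.8 CPM, 95% Poisson interval 28.8 to 58.7). That interval takes the UMIs as independent, so with 33 of them in 6 cells it is too narrow. In the pools with at least 10 such cells the level was 123 CPM in morphine pool 2 and 0 in morphine pool 4, against 30.6 CPM in mock pool 2 and 55.6 CPM in mock pool 3. Cells led by Sst, Npy and Nos1 had 1.10 CPM (0.357 to 2.57) and those led by Pvalb, Pthlh and Kit 0.502 CPM (0.0127 to 2.80).

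**Figure D3:**
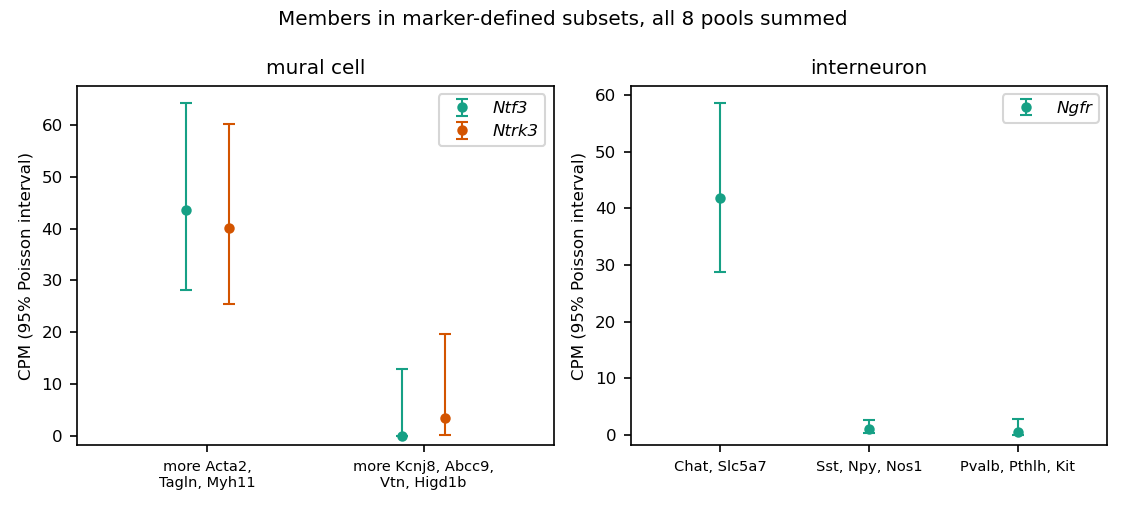
Level in CPM, over all 8 pools summed, of Ntf3 and Ntrk3 in subsets of mural cells and of Ngfr in subsets of interneurons; bars are 95% Poisson intervals and cover counting error only. Ntf3 and Ntrk3 lie mainly in the smooth muscle subset and Ngfr mainly in the cholinergic subset. All subsets were formed after the levels by class had been seen.

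The order of the classes was tested between neighbours, within pools, by a two-sided exact sign-flip permutation test on the log2 CPM. The neighbours were picked by the mean of the same values. Pairs in which both classes held 0 UMIs could only give a difference of 0, and they count in the adjustment. None of the 65 neighbour pairs passed after Benjamini-Hochberg adjustment, which at the smallest p that 8 pools allow would take at least 11 pairs at that p. Unadjusted p-values under 0.05 were found for 6 pairs, the smallest was 0.0078, which is the smallest that 8 pools allow, and the smallest adjusted p was 0.169. Ntrk2 was higher in astrocytes than in ependymal cells by 0.43 ± 0.206 log2 units in 7 of 7 pools, and in neuroblasts than in dividing progenitors by 1.06 ± 0.260 in 8 of 8 pools (SD over pools). Bdnf was higher in excitatory neurons than in astrocytes by 5.08 ± 2.06 in 8 of 8 pools, and Ntf3 in mural cells than in neuroblasts by 2.96 ± 2.64 in 7 of 8.

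Set against all other classes, rather than against its neighbour alone, the leading class of Bdnf, Ntf3 and Ntrk2 was higher than each of the other 13 in the mean difference over pools. For Bdnf in excitatory neurons the differences were 5.08 to 8.91 log2 units, and every pool had that direction in every pair. For Ntrk2 in astrocytes they were 0.43 to 4.60, again in every pool. For Ntf3 in mural cells they were 2.96 to 4.94, in 7 of 8 pools, or 6 of 7 against ependymal cells. For Ntrk3, D1 neurons led on the log2 scale but differed from oligodendrocyte precursors by 0.01 ± 0.436. For Ngfr, oligodendrocytes led on the log2 scale with interneurons next, by 0.10 ± 2.19, while the mean in CPM was higher in interneurons (3.79 against 2.46). These comparisons were added after the levels had been seen and the leading class was picked from the same values, so they are given as a description.

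By correlation of mean log2 CPM across the 14 classes, over 11921 genes, Bdnf was most like Scube1 (r = 0.930), Neurod2 (0.916), which is one of the gate markers, and Dkkl1 (0.914). Ntf3 was most like Vtn (0.886), also a gate marker, Spp1 (0.881) and Gpc3 (0.879), all highest in mural cells. Vtn is among the pericyte genes that define the mural subset in which Ntf3 had 0 UMIs. The likeness of Ntf3 and Vtn is thus one between classes and not between cells of the mural class. For Ntrk2 the nearest were Fmn2 (0.968), Suclg1 (0.929) and 1500009C09Rik (0.925), for Ntrk3 they were Smarca1 (0.977), Dcaf12l1 (0.952) and Gm14290 (0.948), and for Ngfr they were Arl2 (0.869), St18 (0.836) and Hhip (0.834). The points of each correlation are 14 classes from the same libraries, and the genes named are the 3 highest of the 11921. For Ntf3 and Ngfr, all classes with 0 UMIs share 1 floor value set by the prior count, so their correlations rest on few classes.

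Morphine against mock was tested in each class on UMIs summed per pool. In 23 combinations of these genes and 14 classes that passed the filter on low counts (2 of Bdnf, 14 of Ntrk2 and 7 of Ntrk3), edgeR's quasi-likelihood test called 0 at a Benjamini-Hochberg adjusted p under 0.05 and had 0 at an unadjusted p under 0.05; the smallest unadjusted p was 0.124. Over all genes the test called 0.0898% in oligodendrocytes, 0.0361% in astrocytes and 0% in each of the other 12 classes. A block for the replicate number, given below, raised the number of genes called, with none of the genes described here among them. DESeq2, with 57 combinations, also called 0 and had 0 at an unadjusted p under 0.05. The log2 fold changes ranged from -0.56, for Ntrk2 in microglia, to 0.55, for Ntrk2 in mural cells, and 15 of the 23 were above 0. Few pools and few UMIs limit what could be seen: the standard errors of these fold changes ran from 0.129 to 0.492.

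For Ntrk2 in astrocytes, where its level was highest, the log2 fold change was 0.07 (SE 0.141, 95% interval -0.22 to 0.36). In D1 neurons Ntrk2 was 339, 391.5, 324 and 415 CPM in morphine pools 1 to 4, against 320, 415, 303 and 297 CPM in mock pools 1 to 4, a log2 fold change of 0.22 (SE 0.144, unadjusted p = 0.155, edgeR adjusted p = 1.00). In D2 neurons it was 326, 319, 336 and 341 CPM in morphine pools and 337, 413, 312 and 342 CPM in mock pools, a log2 fold change of -0.01 (SE 0.132). The groups overlapped in all 3 classes.

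Bdnf in excitatory neurons had a log2 fold change of 0.54 (SE 0.409, unadjusted p = 0.199, edgeR adjusted p = 1.00). Without morphine pool 3, whose level rests on 1 cell, it was -0.00 (SE 0.296, unadjusted p = 0.994), and without morphine pool 2 it was 1.02 (SE 0.418, unadjusted p = 0.0233, edgeR adjusted p = 1.00). Ntrk3 had log2 fold changes of 0.07 (SE 0.129) in D1 neurons, -0.01 (SE 0.177) in D2 neurons and 0.04 (SE 0.306) in oligodendrocyte precursors. None of these values passed adjustment over all genes, and the value for Bdnf without morphine pool 2 was the only one at an unadjusted p under 0.05.

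With all cells of a pool summed, the 5 genes were tested among 15172 genes, of which 0% were called. Here fewer cells of a type and less RNA per cell cannot be told apart. Bdnf was 5.96, 17.0, 5.31 and 75.4 CPM in morphine pools 1 to 4 and 12.9, 8.17, 21.9 and 46.9 CPM in mock pools 1 to 4. Excitatory neurons made up 1.26, 3.53, 0.355 and 9.38% of the cells in the morphine pools and 2.15, 1.32, 7.37 and 9.27% in the mock pools. The pools with most excitatory neurons were also those with most Bdnf, and their part in the pooled level was not tested.

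The morphine fold change of Bdnf over all cells was 0.29 on the log2 scale (SE 0.822, edgeR adjusted p = 1.00), with -1.21 without morphine pool 4 and 1.03 without mock pool 4. Ntf3 had 0.08 (SE 0.446), Ntrk2 0.06 (SE 0.134), Ntrk3 0.03 (SE 0.124) and Ngfr 0.24 (SE 0.636). Of these 5 tests, 0 were called and 0 had an unadjusted p under 0.05 by edgeR or by DESeq2.

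**Figure D4:**
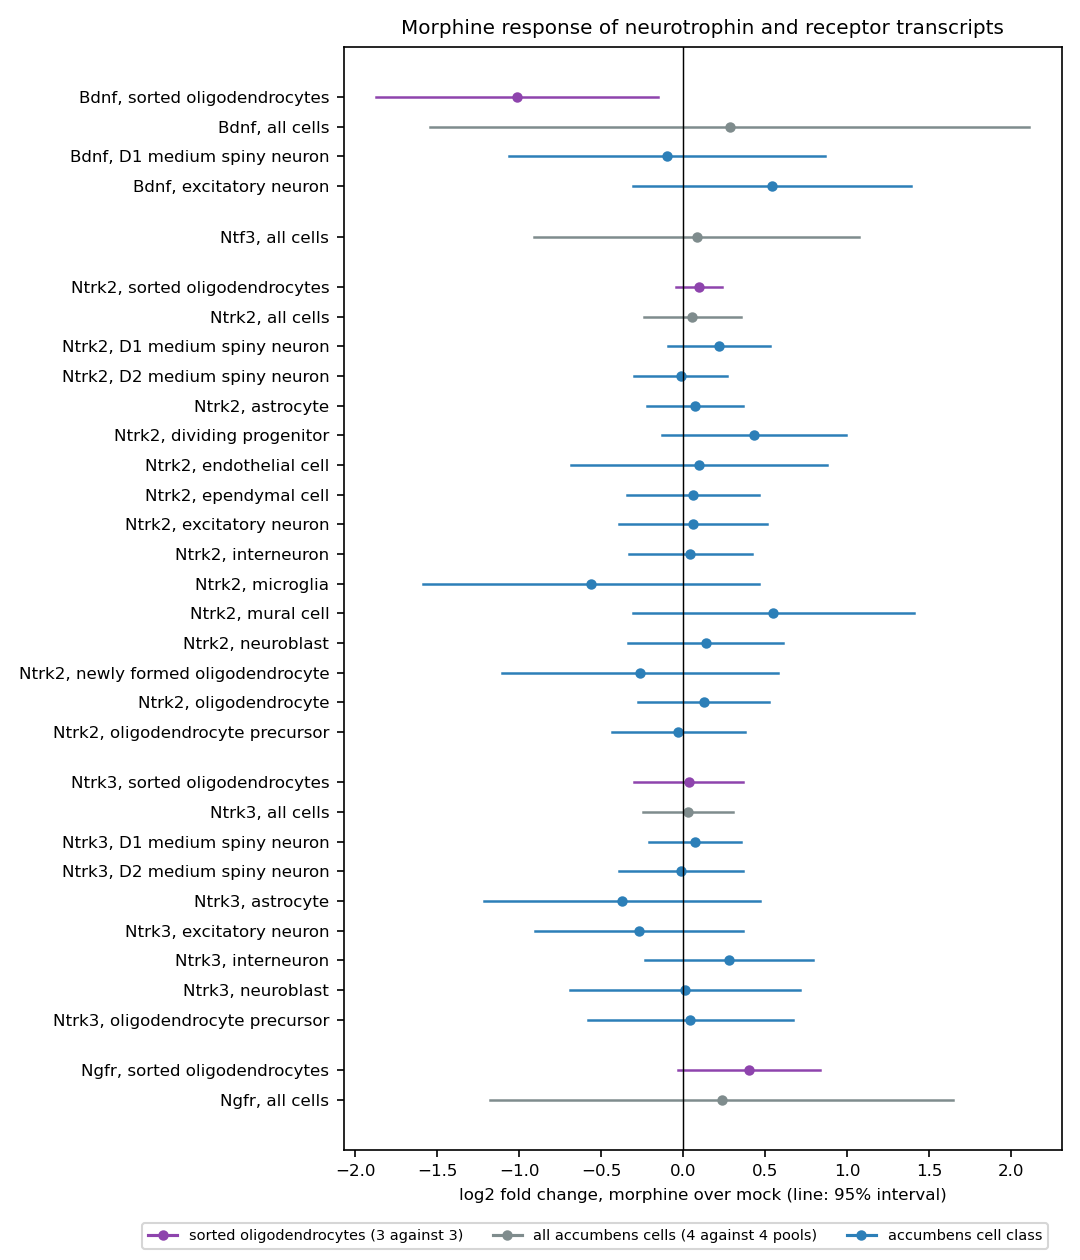
Log2 fold change, morphine over mock, of each gene in sorted oligodendrocytes, in all accumbens cells together and in each accumbens class where it passed the filter on low counts, with 95% intervals from edgeR. The interval of Bdnf in sorted oligodendrocytes is the one that leaves out 0, and its adjusted p was 0.121.

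Whether the response differed between classes was tested in 3 pairs of classes with the pool as a block. Of 7 tests of these genes, edgeR called 0, and 1 had an unadjusted p under 0.05. That was Ntrk2 in D1 against D2 neurons, where the log2 fold change was 0.27 higher in D1 neurons (SE 0.070, 95% interval 0.13 to 0.41, unadjusted p = 0.000363, edgeR adjusted p = 0.366). Over all genes 0.0426% were called in this pair, 0.01% in astrocytes against oligodendrocytes and 0% in oligodendrocyte precursors against oligodendrocytes. Over 10 alternatives the difference was 0.21 to 0.33 with adjusted p-values from 0.0379 to 1.00, and it passed in 1 of them, without morphine pool 3 (0.33, edgeR adjusted p = 0.0379).

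Age was compared as pools of replicates 3 and 4 (78 to 82 days) against replicates 1 and 2 (37 to 45 days), with treatment as a covariate. In 23 combinations edgeR called 0, with 2 at an unadjusted p under 0.05. Over all genes it called 0.903% in neuroblasts, 0.558% in oligodendrocyte precursors, 0.51% in endothelial cells, 0.461% in microglia, 0.241% in astrocytes, 0.154% in mural cells, 0.109% in excitatory neurons, 0.0318% in interneurons, 0.0112% in oligodendrocytes and 0% in the other 5 classes and in all cells together. Ntrk2 was at 16.1 to 52.3 CPM in endothelial cells of older pools and 55.2 to 82.5 CPM in those of younger pools, with a log2 difference of -0.83 (SE 0.320, unadjusted p = 0.0168, edgeR adjusted p = 0.302). In oligodendrocytes Ntrk2 was at 60.8 to 73.2 CPM in older pools and 72.6 to 101 CPM in younger ones, with a log2 difference of -0.36 (SE 0.160, unadjusted p = 0.0394, edgeR adjusted p = 0.358). Both classes are among those with the lowest Ntrk2 levels, where the part of free RNA was not tested. Over all cells Bdnf differed by 1.83 (SE 0.666, unadjusted p = 0.0217) and Ntf3 by -0.93 (SE 0.354, unadjusted p = 0.0269), each with an edgeR adjusted p of 0.463, and the other 3 genes by -0.23 to -0.00. Without morphine pool 4 the Bdnf difference was 0.86, and without morphine pool 3 it was 2.21 with an edgeR adjusted p of 0.0593. Excitatory neurons made up 0.355 to 9.38% of the older and 1.26 to 3.53% of the younger pools.

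In the oligodendrocytes sorted from whole brain, Bdnf had few reads. There were 17, 10 and 13 reads in morphine libraries 1 to 3, against 26, 20 and 29 reads in mock libraries 1 to 3, or 0.896, 0.546 and 0.554 CPM in morphine and 1.21, 1.33 and 1.57 CPM in mock libraries. All 3 morphine libraries lay below all 3 mock libraries. The log2 fold change was -1.01 (SE 0.411, 95% interval -1.87 to -0.15, unadjusted p = 0.0236, edgeR adjusted p = 0.121), so the difference did not pass adjustment over the 15751 genes tested. It was the only one of 4 genes tested at an unadjusted p under 0.05, and 0 of 4 were called, beside 14.8% of all genes tested. Of all genes tested, 29.1% had groups that did not overlap. DESeq2 also called 0 and had 1 at an unadjusted p under 0.05, and the authors' deposited table gives Bdnf a log2 fold change of -0.64 with an adjusted p of 0.229. An exon of Gm45346 overlaps Bdnf on the other strand, and the strand of counting is not given in the sources used here.

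Marker lists of oligodendrocytes and of other cells moved in both directions in the sorted libraries. Of 19 marker lists, the summed level was lower in all morphine than in all mock libraries for 3, higher for 2 and overlapping for 14. The summed level of 10 general neuronal markers was 121 to 134 CPM in morphine and 137 to 155 CPM in mock libraries, with 1 of 10 lower and 0 higher by the test. That of the 8 excitatory neuron markers was 8.96 to 9.22 CPM in morphine and 10.1 to 14.9 CPM in mock libraries, with 0 of 7 tested called and a median log2 fold change of -0.34. Endothelial markers summed to 45.1 to 61.5 CPM in morphine and 73.5 to 75.5 CPM in mock libraries, with 4 of 12 lower and 0 higher and a median of -0.50, beside -0.02 over all genes. These are the 3 lower lists. The 2 higher ones were the 10 markers shared by D1 and D2 medium spiny neurons and the 12 oligodendrocyte markers. The former summed to 271 to 282 CPM in morphine and 249 to 268 CPM in mock libraries. Of these, 1 of 9 tested was higher and 1 lower, with a median of -0.18. The latter summed to 69438 to 70528 CPM in morphine and 65798 to 68982 CPM in mock libraries. Of the oligodendrocyte markers, 2 of 12 were higher and 3 lower, with a median of 0.05. The medium spiny neuron sum and the median of its single genes thus differed in sign. No measured gene of the lists was at 0 in every library, and their part in the Bdnf difference was not tested.

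Ntf3 had 4, 1 and 2 reads in morphine and 2, 8 and 5 reads in mock libraries, too few to pass the filter. Ntrk2, at 74.2, 71.2 and 75.8 CPM in morphine and 74.2, 64.7 and 70.9 CPM in mock libraries, had a log2 fold change of 0.10 (SE 0.0673, 95% interval -0.04 to 0.24, edgeR adjusted p = 0.412). Ntrk3 was at 6.11, 6.17 and 8.31 CPM in morphine and 8.07, 6.27 and 6.12 CPM in mock libraries, with a log2 fold change of 0.03 (SE 0.160, edgeR adjusted p = 0.935). The groups overlapped for all 3 genes.

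Ngfr was at 4.53, 5.08 and 3.45 CPM in morphine and 2.78, 3.14 and 4.11 CPM in mock libraries. The highest mock library lay among the morphine libraries. Its log2 fold change was 0.40 (SE 0.208, 95% interval -0.03 to 0.84, edgeR adjusted p = 0.2498). In the authors' deposited table Ntf3 has a log2 fold change of -0.31, Ntrk2 0.12, Ntrk3 0.05 and Ngfr 0.37.

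**Figure D5:**
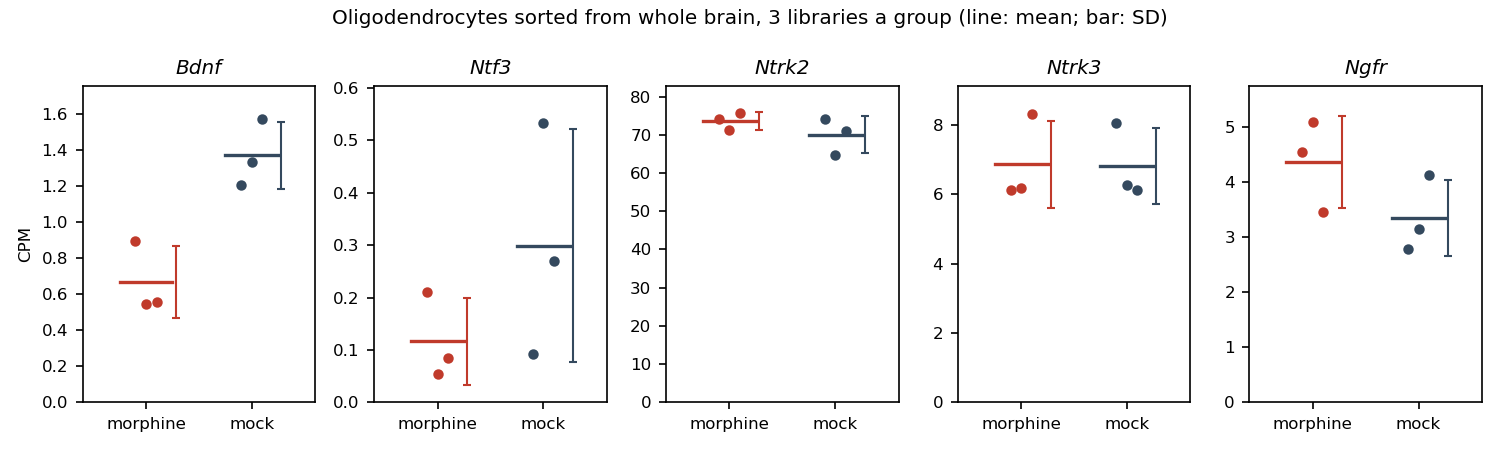
Level in CPM of the 5 genes in 3 morphine and 3 mock libraries of oligodendrocytes sorted from whole brain (points), with the mean (line) and SD (bar). The 3 morphine libraries lie below the 3 mock libraries for Bdnf, and the groups overlap for the other 4 genes.

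Of the 5 genes, the 4 tested by edgeR in the sorted cells were not called. Several genes of the pathway lists were called, beside 14.8% of all genes tested. These lists were chosen with earlier results of these data known. Of 7 tested genes among other ligands, receptors and co-receptors, 0 rose and 2 fell. Sort1, the co-receptor sortilin, was at 394, 400 and 407 CPM in morphine and 458, 468 and 494 CPM in mock libraries and fell by 0.22 on the log2 scale (SE 0.0498, edgeR adjusted p = 0.00383). Rtn4r, the Nogo receptor that pairs with p75, was under 2 CPM in every library and fell by 1.72 (SE 0.491, edgeR adjusted p = 0.0194). Sorcs1, a sortilin relative, missed the threshold at 0.18 (edgeR adjusted p = 0.0503).

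Of 10 tested genes of proneurotrophin processing and release, 1 rose and 0 fell, with a median log2 fold change of 0.02. Plat, which encodes tissue plasminogen activator, the protease that starts extracellular cleavage of proBDNF by way of plasmin, was at 57.8, 57.0 and 56.2 CPM in morphine and 28.9, 30.0 and 27.98 CPM in mock libraries. It rose by 1.00 on the log2 scale (SE 0.0708, edgeR adjusted p = 8.12e-10), and its groups were far apart. The proprotein convertase gene Furin had 0.15 (edgeR adjusted p = 0.365) and the carboxypeptidase gene Cpe 0.07 (edgeR adjusted p = 0.564).

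Of 18 Trk adaptors and effectors, 5 rose and 3 fell, with a median of 0.03. Sh2b2, an adaptor that binds activated receptor tyrosine kinases, was at 58.9, 63.7 and 67.4 CPM in morphine and 2.74, 1.53 and 1.84 CPM in mock libraries, a log2 fold change of 4.94 (SE 0.128, edgeR adjusted p = 1.29e-16). Ptpn11, the phosphatase SHP2 downstream of many receptors, rose by 0.90 (SE 0.0583, edgeR adjusted p = 2.18e-10). Gab1, a docking adaptor, was at 255.5, 259 and 258 CPM in morphine and 449, 444 and 491 CPM in mock libraries and fell by 0.81 (SE 0.0528, edgeR adjusted p = 2.21e-10).

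Of 9 tested p75 interactors, 1 rose and 1 fell. These were Irak1, a kinase recruited to p75 signalling complexes, with 0.37 (SE 0.0942, edgeR adjusted p = 0.00928), and Rtn4r, given above.

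Of 10 tested genes listed as regulators of Bdnf transcription or as relatives of such regulators, 1 rose and 4 fell, with a median of -0.16. Whether Nfat5 and Bhlhe41 act on Bdnf itself was not examined. Nfat5, a transcription factor gene, was at 239, 234 and 242 CPM in morphine and 320, 305 and 324 CPM in mock libraries and fell by 0.38 (SE 0.0526, edgeR adjusted p = 1.4e-05), and Bhlhe41, a repressor gene, fell by 0.49 (SE 0.0916, edgeR adjusted p = 0.000541). Rest, the gene of a repressor of neuronal genes, fell by 0.32 (SE 0.0816, edgeR adjusted p = 0.00905).

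Of 9 tested genes that Trk signalling is known to induce in neurons, 0 rose and 1 fell, with a median of -0.19. Arc, a synaptic immediate early gene, was at 26.9, 25.5 and 24.6 CPM in morphine and 65.2, 54.1 and 64.5 CPM in mock libraries and fell by 1.23 (SE 0.0827, edgeR adjusted p = 3.7e-10). Of 12 other growth factor receptors of glia, 3 rose and 3 fell. Erbb3, a neuregulin receptor gene, fell by 0.90 (SE 0.0637, edgeR adjusted p = 8.25e-10), Fgfr2 fell by 0.42 (SE 0.0538, edgeR adjusted p = 5.2e-06) and Fgfr1 rose by 0.73 (SE 0.114, edgeR adjusted p = 7.26e-05).

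The shares of called genes in these lists stand beside 14.8% of all genes tested, and nothing particular to the pathway is read from them. No gene of these lists was called in any accumbens class. On the other strand, exons of other genes overlap Sort1, Sorcs1, Furin, Gab1, Bhlhe41 and Fgfr1, and on the same strand Irak1 and Fgfr2 overlap another gene, so their reads could be shared.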

How the data were processed

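For Drop-seq the authors deposited unnormalized counts of UMIs per gene and cell barcode, which per the file headers came from the DigitalExpression program; reads were of 75 bases. For the sorted oligodendrocytes they deposited unnormalized read counts by gene symbol, and per the labels' protocols the RNA was amplified with a SeqPlex kit and read at 50 bases; its columns were matched to the treatment their headers name, and the numbers in those headers only name the libraries. A further table deposited by the authors gives log2 fold changes with p-values. Its mean normalized signal per gene and its test score were deposited by the authors too and are not used here. Per the submitters' processing notes, STAR 2.4.2a, Trimmomatic 0.36, HTSeq, DESeq2 and DESeq were used with mm10, without a role for each. Rows naming no gene took 69.5 to 74.3% of sorted reads and were left out. Of the accumbens symbols, 1234 were renamed, and 6119 found only in replicate 1 (0.777% of its UMIs) were left out.

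Cells needed at least 300 detected genes and a mitochondrial share of no more than 20%, and each was given the class whose marker profile had the highest likelihood, with 2561 barcodes carrying markers of 2 lineages set aside in place of a doublet caller. A first gate on marker scores alone had left 12789 barcodes (38.5%) without a class, 7566 of them now medium spiny neurons; the rule used here was set after that gate's values were seen. Within each pool the UMIs of a class were added up, where the class reached 10 cells in 3 or more pools of each treatment. Differences were tested with edgeR 4.0.16 (quasi-likelihood, TMM, filterByExpr, Benjamini-Hochberg) in R 4.3.3 over all genes of a table, with DESeq2 1.42.0 as an alternative; printed CPM are scaled to the library or class total. Python 3.11.15 with SciPy 1.17.1 served the rest. On data simulated from the real means, the test recovered 77% and 93% of changes of 1 and 2 log2 units among 15751 genes in the sorted cells, 56% and 86% among 8307 in astrocytes and 62% and 96% among 8905 in oligodendrocytes. A count of 0 was read as allowing 3 counts over the whole class; intervals and such limits cover counting error only. Nothing states that the sorted libraries are separate mice beyond the count of 6 mice in the design, so p-values measure the spread between these samples. Positions are from GENCODE vM21 on GRCm38, counted from 1.

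The genes, the pathway lists and the marker lists were chosen with earlier results of these data known. All 5 genes were reported wherever measured, with the 3 genes nearest to each in pattern and at most 3 genes per pathway list, those of smallest p in the sorted cells. One gene of the pathway lists is not reported here and was left out of its list.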

Additional observations from a re-analysis of the deposited data

Results flagged for a closer look

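In 3 of the 55 groups of 4 samples examined, 1 sample lay far enough from the others that its gap, divided by the range of the group, exceeded Dixon's critical value at the 95% level; chance alone gives about 1 in 20 such groups. Bdnf in excitatory neurons was 1235 CPM in morphine pool 3, while the other morphine pools lay between 133 and 283 CPM; 34 of its 37 UMIs there came from 1 of 10 cells. Bdnf over all cells was 75.4 CPM in morphine pool 4, while the other morphine pools lay between 5.31 and 17.0 CPM; excitatory neurons made up 9.38% of that pool. Ntrk3 in interneurons was 65.2 CPM in morphine pool 2, while the other morphine pools lay between 33.2 and 38.6 CPM and the mock pools between 32.7 and 44.4 CPM.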

How the results depend on the processing

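No call for the 5 genes under morphine changed in 439 refits over the alternatives (another normalization, DESeq2, no filter on low counts, a stricter and the first gate, age as a covariate, each library left out), where the smallest adjusted p was 0.108; since 23 of 32 tests changed sign in some alternative, most of these fold changes have no settled direction. For age, 244 refits gave 0 calls with a smallest adjusted p of 0.0593. For the difference between classes, 1 of 70 refits was a call, Ntrk2 in D1 against D2 neurons, so the number of such calls was 0 to 1 when 1 library was left out. The 11 genes called over all 14 accumbens classes, of 88564 tests with 2656 at an unadjusted p under 0.05, became 17 with age as a covariate, 37 with DESeq2 and 144 without the filter, and 2 to 24 with 1 library left out (2 without mock 2, mock 3 or morphine 1, 3 without mock 1 or morphine 3, 5 without morphine 4 and 24 without mock 4). A replicate block raised the count to 267, with none of the 5 genes called. Pools of one number share the ages of their mice, and 6119 symbols were found only in the pools numbered 1. The deposited matrices held 3000, 6000, 3000 and 6000 barcodes for pools 1 to 4, the same in both groups. The labels name no shared batch or day. The deviations of same-numbered pools from their group means correlated at 0.44, -0.08, -0.05 and 0.69. The highest correlation was at the own number for 1 and 4 and not for 2 and 3. Morphine pool 1 and mock pool 1 shared 8 cell barcodes, and no other pair shared more than 3. Whether the numbers mark shared batches is not known, and these correlations cannot decide it. The fit without the block was kept, so its standard errors and p-values for morphine leave out any pairing by number. In the sorted cells, whose columns carry only a number in the header, the correlations were 0.02, -0.12 and -0.03. In the sorted cells 1761 to 2701 genes were called over the alternatives, against 2327 (2200 with the block), and the log2 fold change of Bdnf was -1.29 to -0.87 with adjusted p-values of 0.108 to 0.338. Scaling by library totals in place of TMM moved the median over all genes by -0.10 to -0.04. The first gate, added after the data were seen, left 10 genes called over all classes and again none of the 5. Between neighbour classes 0 of 65 pairs passed under the stricter gate, a prior count of 0.25 and the first gate, a design that can hardly pass and so says nothing about stability. On the log2 scale, the leading class of Ngfr became interneurons without morphine 1, 3 or 4 or mock 4. That of Ntrk3 became oligodendrocyte precursors without morphine 1 or mock 1 and under the first gate. Depth limits Ntf3 and Ngfr most, which, with 104 and 112 UMIs, passed the filter on low counts in no class.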

Other observations

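Cell classes with too few cells, or with no single identity, were not compared. They were vascular leptomeningeal cells (93), perivascular macrophages (91), red blood cells (221), 2561 barcodes with markers of 2 lineages, 279 neurons of unresolved type and 1035 barcodes that no class led.

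Among cholinergic interneurons, Ntrk3 was at 65.8 CPM (95% Poisson interval 49.2 to 86.4) and Ntrk2 at 303 CPM (265 to 344), over 86 cells in all pools. In the Sst, Npy and Nos1 cells Ntrk3 was at 43.6 CPM (37.7 to 50.1) and Ntrk2 at 498 CPM (478 to 519), and in the Pvalb, Pthlh and Kit cells they were at 35.6 CPM (27.8 to 44.9) and 530.0 CPM (499 to 563). The cholinergic cells were thus the lowest of these 3 subsets for Ntrk2 and the highest for Ntrk3, although the Ntrk3 interval met that of the Sst, Npy and Nos1 cells. The intervals cover counting error over all pools summed, and no test over pools was run.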
